A study of Mus musculus with 12 samples.

Results

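The MHC class I and antigen processing genes described here are 10 genes of the mouse retina whose names matched a fixed list in the gene table: H2-K1, H2-D1, H2-K2, H2-T23, B2m, Tap1, Tap2, Tapbp, Psmb8 and Psmb9. All 10 were present among the 32867 genes listed. Whole retina RNA was sequenced in 12 samples, with 3 in each of 4 groups that carry C3H wild-type alleles or a retinal degeneration mutation. The C3H group held 1 sample each from postnatal days 13, 23 and 29. The Pde6b rd1 retinas (viral insertion in the rod phosphodiesterase subunit Pde6b) were taken at postnatal day 13, the Pde6b rd10 retinas (point mutation in the same gene) at day 23, and the Prph rd2 retinas (insertion in Prph2, a structural protein of photoreceptor outer segments) at day 29. The question was how transcripts differ between models at the peak of photoreceptor death.

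By the study's methods, Pde6b rd1, Prph rd2 and the controls are on the C3H strain and Pde6b rd10 is on C57Bl6/J, whereas the sample labels name C57BL6/J for Prph rd2. The genetic background of the Prph rd2 samples is therefore not settled by the sources used here. Mice of either sex were used. No source says whether a sample held 1 or several animals, so p-values measure only the spread between these samples, which may be technical. In Pde6b rd10, mutation, strain and day differ from most or all controls together and cannot be told apart.

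MHC class I molecules display short peptides from inside the cell to CD8 T cells and, through some members, to natural killer cells. A polymorphic heavy chain (H2-K1 or H2-D1 in the mouse) pairs with the light chain B2m in the endoplasmic reticulum. Peptides are cut by the proteasome, in which interferon induces the replacement subunits Psmb8, Psmb9 and Psmb10, and are pumped in by the Tap1 and Tap2 transporter and loaded with the help of Tapbp (tapasin). Neurons, including those of the retina, are known for low class I levels at rest, and microglia and vascular cells for higher ones. Mouse strains carry different alleles of the H2 complex, and the C57BL/6J strain, from which the reference genome was made, has another H2 haplotype than C3H.

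In the GENCODE annotation of GRCm38, 9 of the 10 genes lie on chromosome 17 within the H2 complex and 1 does not. Tap1, Tap2, Tapbp, Psmb8 and Psmb9 are inside the complex together with the heavy chains, so B2m is the only gene of the 10 outside it. H2-K1 occupies chr17:33996017-34000347 on the minus strand, H2-D1 chr17:35262730-35267499 on the plus strand and H2-T23 chr17:36029773-36032855 on the minus strand. H2-K2, at chr17:33974659-33978827 on the minus strand, is annotated as a transcribed unprocessed pseudogene, and the other 9 genes as protein coding. Tapbp spans chr17:33915899-33929292 on the plus strand. Psmb9 (chr17:34181987-34187764, minus strand), Tap1 (chr17:34187553-34197225, plus strand), Psmb8 (chr17:34197721-34201454, plus strand) and Tap2 (chr17:34203527-34216321, plus strand) are neighbours, and the Psmb9 and Tap1 gene models overlap at their starts. B2m lies at chr2:122147686-122153083 on the plus strand.

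The regions before the starts of 4 genes are shown because they carry sequence motifs that are known to bind the factors driving class I transcription. Each runs from 250 bases before to 50 bases after the RefSeq start on GRCm38.p6, and is written on the strand of the gene. Capitals mark matches on either strand to the kappaB consensus (bound by NF-kappaB), to the core of the interferon-stimulated response element, GAAA, any 2 bases and GAAA (bound by IRF proteins), and to TGACGC, a core of the site alpha at which CREB and ATF factors bind.
H2-K1, chr17:34000284-34000583, minus strand: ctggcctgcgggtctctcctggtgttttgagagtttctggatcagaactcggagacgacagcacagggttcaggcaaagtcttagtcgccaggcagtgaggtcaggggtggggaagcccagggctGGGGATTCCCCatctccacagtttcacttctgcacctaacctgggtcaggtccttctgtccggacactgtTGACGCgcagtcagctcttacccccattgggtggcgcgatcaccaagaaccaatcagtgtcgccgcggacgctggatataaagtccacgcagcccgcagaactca
H2-D1, chr17:35262844-35263143, plus strand: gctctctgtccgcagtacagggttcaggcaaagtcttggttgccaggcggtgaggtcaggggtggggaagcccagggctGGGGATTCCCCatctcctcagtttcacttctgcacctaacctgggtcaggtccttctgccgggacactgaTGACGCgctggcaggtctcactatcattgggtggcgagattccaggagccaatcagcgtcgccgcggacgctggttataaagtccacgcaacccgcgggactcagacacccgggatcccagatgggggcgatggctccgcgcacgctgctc
B2m, chr2:122147437-122147736, plus strand: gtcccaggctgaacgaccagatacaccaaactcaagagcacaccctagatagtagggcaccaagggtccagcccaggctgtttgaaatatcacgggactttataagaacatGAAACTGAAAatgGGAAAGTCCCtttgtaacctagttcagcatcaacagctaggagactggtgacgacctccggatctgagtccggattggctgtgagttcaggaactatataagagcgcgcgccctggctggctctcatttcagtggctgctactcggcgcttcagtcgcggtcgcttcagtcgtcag
H2-T23, chr17:36032652-36032951, minus strand: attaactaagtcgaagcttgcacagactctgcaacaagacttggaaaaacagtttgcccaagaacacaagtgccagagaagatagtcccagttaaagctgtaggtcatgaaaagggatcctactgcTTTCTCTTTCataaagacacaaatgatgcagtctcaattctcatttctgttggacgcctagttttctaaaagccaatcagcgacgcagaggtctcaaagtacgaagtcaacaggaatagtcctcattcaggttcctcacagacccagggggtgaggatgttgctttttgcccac
The H2-K1 and H2-D1 regions share the same kappaB stretch, in which 2 matches overlap because the stretch reads almost alike on both strands, followed by TGACGC. Between these, both regions read tttcacttct. It is similar to the response element core on the other strand but no exact match, so it is unmarked. Aligned without gaps at an offset of 46 bases, these windows were identical at 180 of 254 bases (70.9%). The B2m region has the interferon-stimulated response element core 139 bases before the start, and its kappaB match begins 126 bases before. The H2-T23 region holds only the response element core, 124 bases before the start. Among 32851 promoter windows of all genes, 3.44% held the response element core, 4.51% the kappaB consensus and 7.4% TGACGC. Of the 8 genes with a window, Tap1, Psmb9, Tapbp and Psmb8 held none of these letters, and 275 bases of the Tap1 and Psmb9 windows are the same DNA. The Tapbp, Psmb8, Psmb9 and H2-D1 windows, set by the RefSeq start, lie wholly inside the GENCODE spans given above. For these genes the bases before the GENCODE start were not searched. Only exact matches to these patterns were sought, so a region without a mark may still hold a variant of a site. These matches are descriptions of the C57BL/6J reference and not of the C3H alleles.

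The samples held 17049495 to 24755890 counted reads, so that 3 counts, taken here as the floor of detection, equal 0.1212 to 0.176 CPM, the counts scaled to a common library size. The spread between samples of a group, as the biological coefficient of variation, ran from 3.12% for C3H and 3.35% for Pde6b rd1 to 5.04% for Pde6b rd10 and 7.51% for Prph rd2. C3H thus had the smallest spread, although its 3 samples were given different days and the samples of each model shared a day. Whether the C3H samples differ in age as given was not tested. Ratios to a single C3H sample of the same day rest on the days as given. Rod markers (6 genes), which define the labelled tissue, were present in every sample, with summed FPKM (a level per gene length and library size) of 4390 to 4500 in C3H, 2050 to 2090 in Pde6b rd1, 4030 to 4220 in Pde6b rd10 and 2910 to 3140 in Prph rd2. The mutated genes were lower in their models than in C3H (241 to 245 FPKM of Pde6b), with 56.7 to 57.6 FPKM of Pde6b in Pde6b rd1 and 169 to 174 in Pde6b rd10. Prph2 was at 421 to 482 FPKM in Prph rd2 and 885 to 976 in C3H. Counts were tested with edgeR's quasi-likelihood test against the 3 C3H samples, and a gene is called changed when its fold is at least 1.5 and its p, before adjustment, is under 0.05. Adjusted p-values are Benjamini-Hochberg values over all genes tested.

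All 10 genes were higher in Pde6b rd10 than in C3H, where 15.9% of 18704 tested genes were called higher. The 3 Pde6b rd10 samples lay above all 9 other samples for each of the 10 genes. Their median log2 fold change was 3.94, while the median of all tested genes was within 0.04 of 0 under each of 3 scalings, and it was the same with H2-K2 set at its count ratio or at the lower bound of that ratio's interval. For comparison, in Pde6b rd10 59.3% of all tested genes had groups that did not overlap with C3H. In Pde6b rd1 none was called higher, where 8.98% of all tested genes were, and 2 were called lower. In Prph rd2 the 2 classical heavy chains alone were called, both higher. Judged by an adjusted p under 0.05 without a fold minimum, 10 of 10 genes passed in Pde6b rd10 (54.1% of all genes), 3 of 8 in Pde6b rd1 (43.2%) and 2 of 9 in Prph rd2 (9.7%). H2-K2 had enough counts to be tested only through its Pde6b rd10 samples, so its calls in that model add no support to these counts. All 10 were also higher in Pde6b rd10 than in the other models, with 17.6% of 19616 genes called higher against Pde6b rd1 and 13.5% against Prph rd2. The 3 comparisons share the C3H samples.

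**Figure D1:**
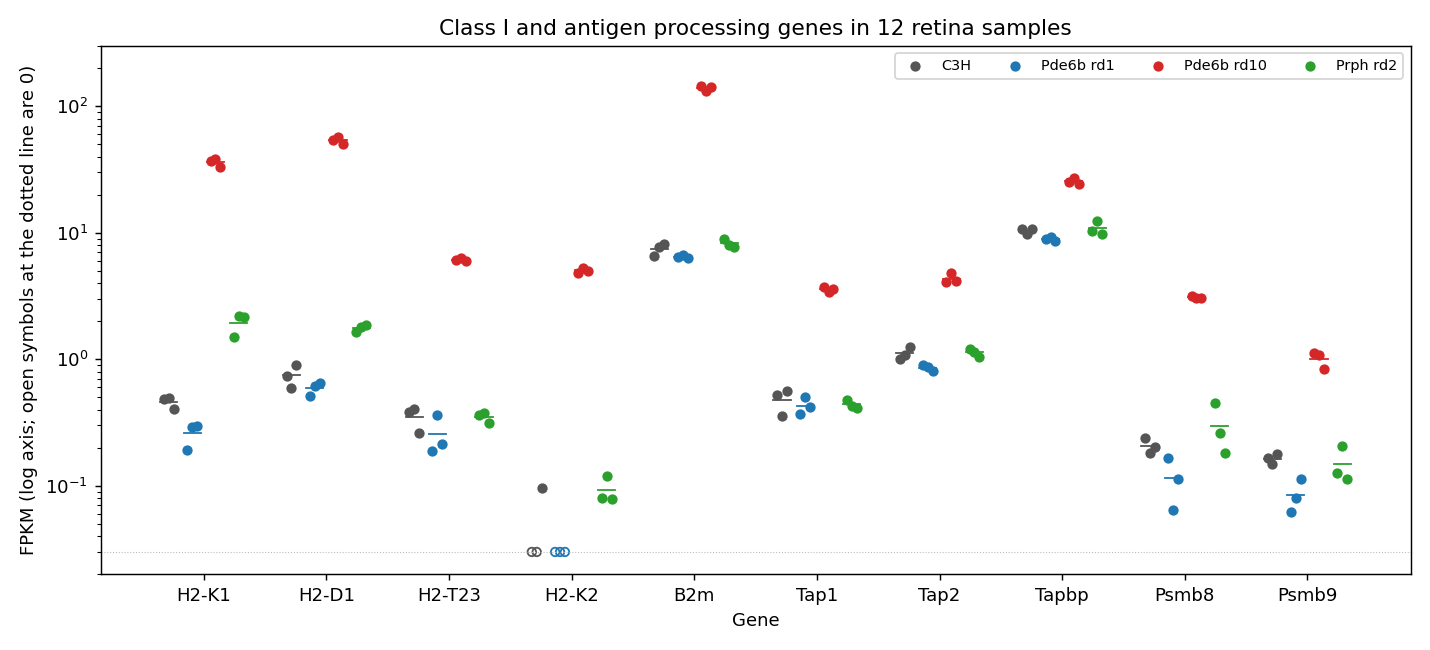
FPKM (log axis) of the 10 genes in each of the 12 samples, coloured by group, with lines at group means where no sample is at 0. The Pde6b rd10 samples stand above all others for every gene, with B2m at 133 to 146 FPKM, and the Prph rd2 samples stand above C3H for H2-K1 and H2-D1.

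H2-K1, a classical class I heavy chain, had 25, 31 and 21 counts in the C3H samples and 2369, 1879 and 1740 in Pde6b rd10. In Pde6b rd1 it had 11, 13 and 15 counts, and in Prph rd2 92, 137 and 137. Its FPKM level was 0.461 ± 0.0478 (SD, n = 3) for C3H and 0.261 ± 0.0592 for Pde6b rd1, rising to 1.95 ± 0.399 for Prph rd2 and 36.2 ± 2.61 for Pde6b rd10. The 4 groups did not overlap in FPKM, and their order from low to high was Pde6b rd1, C3H, Prph rd2 and Pde6b rd10. The log2 fold change in Pde6b rd10 was 6.23 (SE 0.1, adjusted p = 6.44e-21 by edgeR), which is 74.8-fold, rank 91 among the 18704 genes tested.

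H2-D1, the other classical heavy chain, had 38, 37 and 46 counts in C3H and 3444, 2774 and 2593 in Pde6b rd10. The Prph rd2 samples had 100, 111 and 116 counts and those of Pde6b rd1 had 29, 27 and 32. Again Pde6b rd10 was far above and Prph rd2 moderately above C3H, while the FPKM of Pde6b rd1 (0.515 to 0.644) overlapped that of C3H (0.597 to 0.9). Pde6b rd10 differed from C3H by a log2 fold change of 6.13 (SE 0.1, adjusted p = 2.43e-21 by edgeR), or 70.2-fold. Against the single C3H sample given as day 23, H2-D1 was 87.1-fold and H2-K1 70.6-fold higher in CPM, a ratio with no test.

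H2-T23, which encodes the non-classical molecule Qa-1 that presents peptides to natural killer receptors, had 22, 28 and 15 counts in C3H. The Prph rd2 samples had 25, 26 and 22 counts, Pde6b rd1 had 12, 18 and 12, and Pde6b rd10 had 435, 340 and 346. Pde6b rd10 alone did not overlap C3H, and H2-T23 was 16.6-fold higher there (log2 fold change 4.05, SE 0.14, adjusted p = 1.24e-15 by edgeR). The pseudogene H2-K2 was at 0, 0 and 2 counts in C3H, at 0 in all 3 Pde6b rd1 samples and at 2, 3 and 2 in Prph rd2. Pde6b rd10 had 126, 104 and 104 counts of H2-K2. Per summed depth this is 168-fold the C3H level, with an exact 95% counting interval of 46.0 to 1390, wide because C3H had 2 counts in all. Intervals and floors cover counting error only.

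Reads of these genes could in part be shared with their relatives. Of all 150-base stretches of the longest GENCODE transcript, 0 of 1725 for H2-K1, 35 of 1953 (1.79%) for H2-D1, 11 of 2493 (0.441%) for H2-T23 and 0 of 1418 for H2-K2 occur unchanged in a transcript of another gene. These shares refer to the reference haplotype. How many reads of C3H alleles aligned to it was not tested.

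B2m, the light chain shared by the class I molecules, had 112, 159 and 139 counts in C3H, 181, 166 and 162 in Prph rd2, and 120, 98 and 104 in Pde6b rd1. In Pde6b rd10 it had 3100, 2139 and 2434 counts. The first 3 groups lay close together, at 7.47 ± 0.821, 8.24 ± 0.582 and 6.45 ± 0.21 FPKM (SD, n = 3), and Pde6b rd10 stood at 140.0 ± 6.5 FPKM. The log2 fold change of 4.17 (SE 0.07, adjusted p = 1.28e-20 by edgeR) is 18.0-fold. The ratio was 17.6-fold against the C3H sample given as day 23 alone. B2m is on chromosome 2, outside the H2 complex, and had rank 205 of 18704 genes by log2 fold change.

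The peptide transporter genes rose less. Tap1 had 57, 47 and 61 counts in C3H, 44, 47 and 44 in Pde6b rd1, 62, 56 and 55 in Prph rd2 and 507, 352 and 391 in Pde6b rd10. It was 7.27-fold higher in Pde6b rd10 than in C3H (log2 fold change 2.86, SE 0.13, adjusted p = 6.46e-14 by edgeR), and the other 3 groups overlapped in FPKM. Tap2, the second subunit, had 76, 98 and 94 counts in C3H, 74, 56 and 59 in Pde6b rd1, 108, 103 and 96 in Prph rd2 and 381, 340 and 314 in Pde6b rd10. Its change in Pde6b rd10 was 3.74-fold (log2 fold change 1.9, SE 0.11, adjusted p = 9.78e-12 by edgeR).

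Tapbp, which bridges the transporter and the heavy chain, had the highest level of the 10 genes in C3H, 10.4 ± 0.498 FPKM (SD, n = 3), and the smallest fold change. It had 773, 860 and 770 counts in C3H and 2278, 1827 and 1759 in Pde6b rd10, a 2.36-fold rise (log2 fold change 1.24, SE 0.06, adjusted p = 1.01e-13 by edgeR). Counts of Tapbp were 886, 1085 and 863 in Prph rd2, and 714, 572 and 607 in Pde6b rd1. The order of FPKM levels differed between groups. In C3H the order from high to low was Tapbp, B2m, Tap2, H2-D1, Tap1, H2-K1, H2-T23, Psmb8, Psmb9 and H2-K2, and only Tap1 and H2-K1 overlapped among neighbours in that order. In Pde6b rd10, B2m was highest, then H2-D1 (53.9 ± 3.6 FPKM), H2-K1 (36.2 ± 2.61 FPKM), Tapbp (25.5 ± 1.34 FPKM), H2-T23, H2-K2, Tap2, Tap1, Psmb8 and Psmb9, with no overlap between neighbours. The Pde6b rd1 order was that of C3H, with overlap of H2-K1 with H2-T23 and of Psmb8 with Psmb9. In Prph rd2, H2-K1 and H2-D1 overlapped and followed Tapbp and B2m, ahead of Tap2, and H2-T23, Psmb8, Psmb9 and H2-K2 each overlapped the next in order. Psmb9 was the lowest in Pde6b rd10, at 1.01 ± 0.157 FPKM.

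The immunoproteasome subunits Psmb8 and Psmb9 were near the floor outside Pde6b rd10. Psmb8 had 13, 12 and 11 counts in C3H, 10, 3 and 6 in Pde6b rd1, 29, 17 and 12 in Prph rd2 and 215, 156 and 166 in Pde6b rd10. It was 14.3-fold higher in Pde6b rd10 (log2 fold change 3.83, SE 0.18, adjusted p = 2.17e-13 by edgeR). Psmb9 had 12, 13 and 13 counts in C3H, 5, 5 and 8 in Pde6b rd1, 11, 18 and 10 in Prph rd2 and 102, 74 and 61 in Pde6b rd10. It was 5.95-fold higher in Pde6b rd10 (log2 fold change 2.57, SE 0.24, adjusted p = 9.35e-09 by edgeR). The Psmb9 and Tap1 gene models overlap on opposite strands, and no source used here says whether the counting used strand, so reads of the overlap cannot be assigned.

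**Figure D2:**
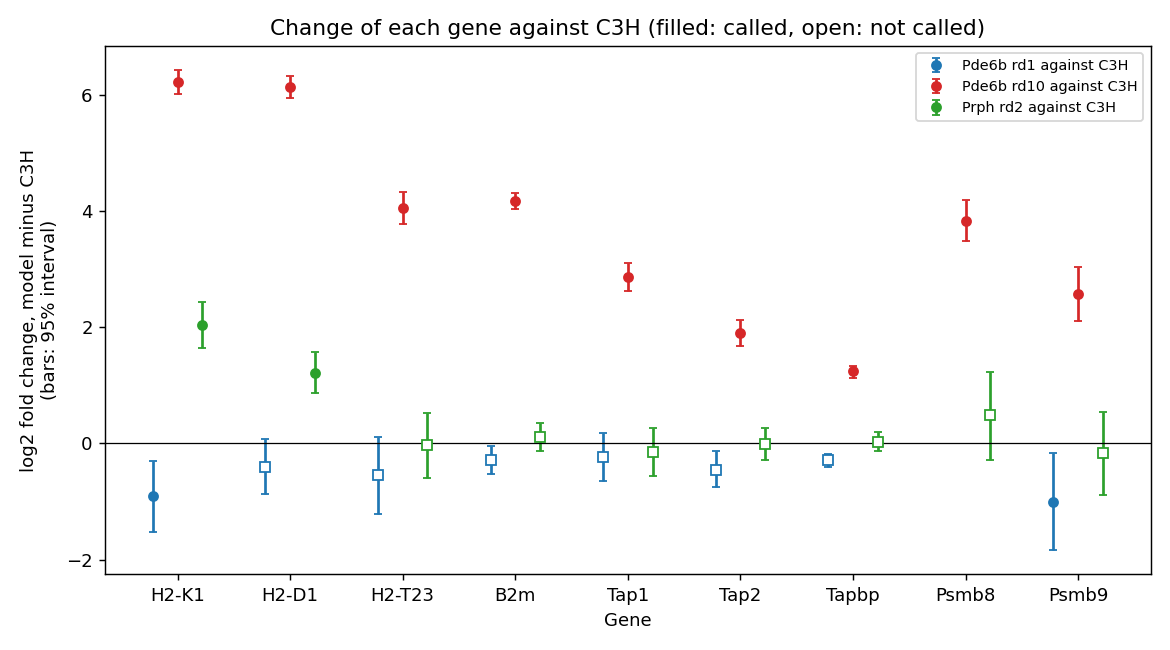
Log2 fold change against C3H (y axis) of 9 genes in the 3 models, with 95% intervals from the edgeR fit, and filled circles for called and open squares for uncalled genes. H2-K2 is left out because C3H had 2 counts. Values in Pde6b rd10 run from 1.24 for Tapbp to 6.23 for H2-K1, and in Prph rd2 H2-K1 and H2-D1 alone are called.

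The immunoproteasome share sets the 3 inducible subunits Psmb8, Psmb9 and Psmb10 against these plus their constitutive counterparts Psmb5, Psmb6 and Psmb7, in FPKM. It was 13.0% ± 0.706 (SD, n = 3) for Pde6b rd10, 4.41% ± 0.117 for Prph rd2, 4.22% ± 0.123 for C3H and 3.28% ± 0.189 for Pde6b rd1. Each model was separate from C3H, with an exact two-sided permutation p = 0.1 in each, the smallest that 3 against 3 samples allow. The 3 pairs were unequal. In Pde6b rd10, Psmb10 stood at 36.0% of Psmb7, Psmb8 at 13.0% of Psmb5 and Psmb9 at 3.56% of Psmb6, against 16.5%, 0.813% and 0.522% in C3H. The constitutive subunits were not called in Pde6b rd10, with log2 fold changes of -0.18 for Psmb5, -0.2 for Psmb6 and -0.08 for Psmb7.

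The ratio of heavy chain to light chain compares 2 genes within a sample. The log2 ratio of H2-K1 to B2m in FPKM was -4.02 ± 0.286 (SD, n = 3) for C3H, -1.95 ± 0.152 for Pde6b rd10, -2.1 ± 0.414 for Prph rd2 and -4.65 ± 0.348 for Pde6b rd1. Each model lay apart from C3H (exact two-sided permutation p = 0.1, the smallest possible). The Pde6b rd10 and Prph rd2 samples overlapped in this ratio, although B2m itself was 18.0-fold higher than in C3H in the first and was not called in the second. For H2-D1 to B2m the log2 ratio was -3.34 ± 0.304 for C3H, -1.38 ± 0.149 for Pde6b rd10, -2.22 ± 0.194 for Prph rd2 and -3.45 ± 0.174 for Pde6b rd1. Here Pde6b rd10 and Prph rd2 did not overlap. The exact two-sided permutation p against C3H was 0.1 for Pde6b rd10 and Prph rd2 and 0.6 for Pde6b rd1. Adjusted over the 9 tests of ratios and share, the 8 values of 0.1 became 0.113.

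**Figure D3:**
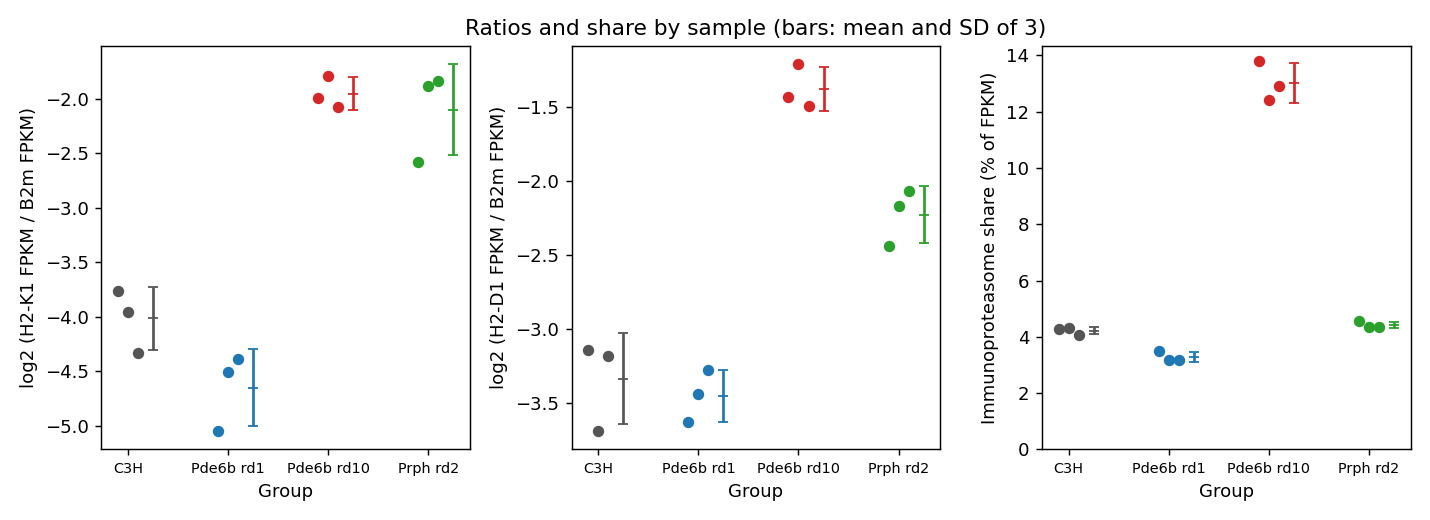
Log2 FPKM ratio of H2-K1 to B2m, log2 FPKM ratio of H2-D1 to B2m, and immunoproteasome share (percent of FPKM) in each sample, with the mean and SD of the 3 samples of a group beside the points. Pde6b rd10 and Prph rd2 lie above C3H in both ratios, and the share is 12.4 to 13.8% in Pde6b rd10 and at most 4.55% elsewhere.

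For genes in the H2 complex, haplotype cannot be told apart from mutation in Pde6b rd10. A list of 23 class I pathway genes outside chromosome 17, B2m among them, was set beside them. For this list too, mutation, strain and day cannot be told apart. Lnpep, a trimming peptidase, was left out because it lies on chromosome 17. In Pde6b rd10, 9 of the 23 (39.1%) were called higher and 0 lower, against 15.9% of all genes called higher. Of these, Nlrc5 had enough counts to be tested only through its Pde6b rd10 samples, so its call adds no support to this share. The median log2 fold change of the list was 0.47.

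Several transcription factors of the class I genes rose. Nlrc5, the transactivator of class I genes, had 8, 3 and 11 counts in C3H and 311, 253 and 275 in Pde6b rd10. The Prph rd2 samples had 7, 2 and 6 counts of Nlrc5 and those of Pde6b rd1 had 5, 1 and 5, so that every sample outside Pde6b rd10 had at most 11. Against C3H the log2 fold change in Pde6b rd10 was 5.18 (SE 0.21, adjusted p = 2.07e-14 by edgeR). The interferon regulatory factor Irf1 had 62, 71 and 65 counts in C3H and 468, 355 and 401 in Pde6b rd10, a log2 fold change of 2.58. Irf7 rose by 2.2, Irf9 by 2.53 and Stat2 by 0.88 on the log2 scale. The proteins of Stat2 and Irf9 act in type I interferon signalling. Rfx5, Rfxap and Rfxank, subunits of the factor that binds the X box of class I promoters, and Irf2 were not called. Rfx5 was at 0.12, Rfxap at -0.04 and Irf2 at 0.23 (adjusted p = 0.00716 by edgeR). Rfxank, at 0.58 (1.49-fold, adjusted p = 6.88e-06 by edgeR), was just under the fold threshold.

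Among the processing genes, Psmb10 (immunoproteasome), Erap1 (peptide trimming in the endoplasmic reticulum) and Tapbpl (another peptide editor) were called higher, with log2 fold changes of 1.06, 1.03 and 1.34. Psmb10 had 94, 121 and 104 counts in C3H and 292, 193 and 205 in Pde6b rd10. The proteasome activator subunits Psme1 and Psme2 were both at 0.47 and were not called. The general chaperones of the loading complex were not called either, with Calr at -0.49 and Pdia3 at -0.35. Thus 9 of the 23 genes passed both thresholds, and the constitutive proteasome subunits and chaperones were among the 14 that did not.

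**Figure D4:**
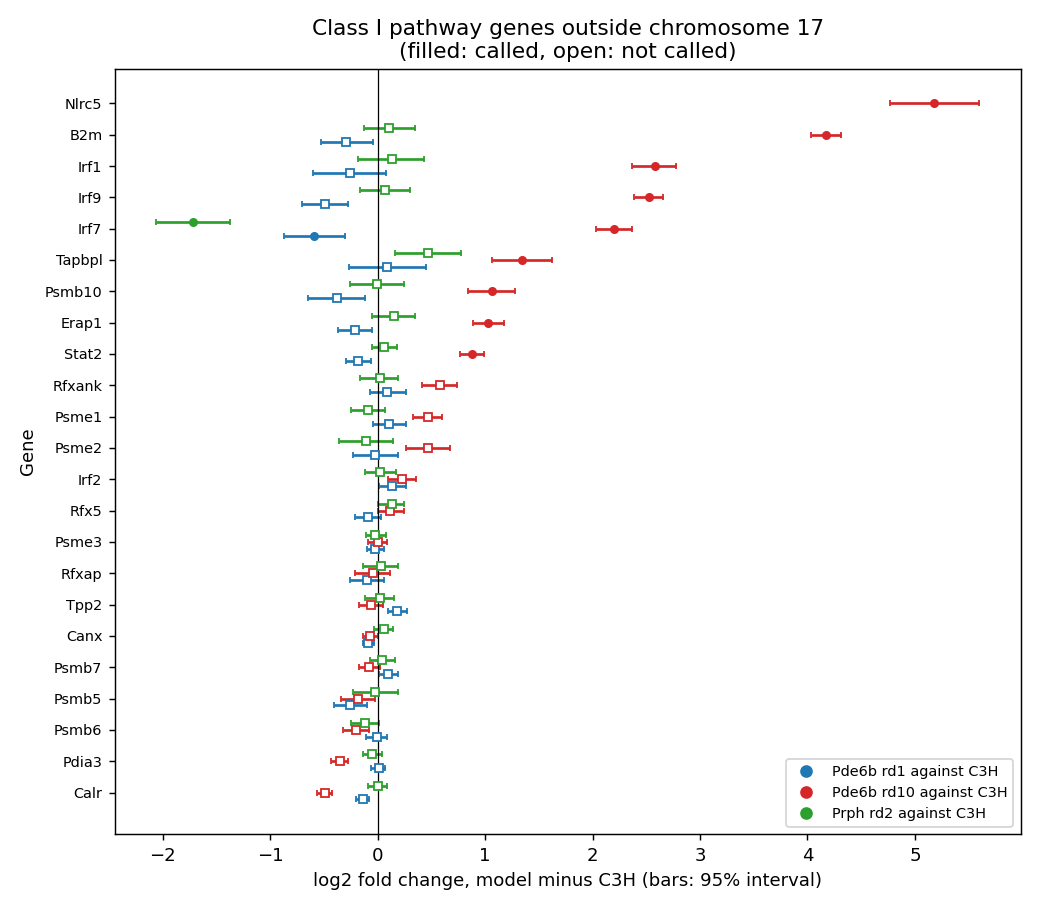
Log2 fold change against C3H (x axis) with 95% intervals for 23 class I pathway genes outside chromosome 17, in order of the Pde6b rd10 value, with filled circles for called and open squares for uncalled genes. Nlrc5 at 5.18 and B2m at 4.17 lead in Pde6b rd10, while Irf7 is the only gene called in Pde6b rd1 and in Prph rd2, lower in both.

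In Pde6b rd1 and Prph rd2, Irf7, a factor itself induced by interferon, was the only gene of these 23 called, and it was lower in both. It had 123, 132 and 126 counts in C3H, 74, 74 and 95 in Pde6b rd1, 33, 55 and 46 in Prph rd2 and 721, 556 and 540 in Pde6b rd10. Irf7 had a log2 fold change of -0.59 (SE 0.15, adjusted p = 0.00202 by edgeR) in Pde6b rd1 and -1.72 (SE 0.18, adjusted p = 1.87e-05 by edgeR) in Prph rd2. The Pde6b rd1 value lies at the 1.5-fold threshold, and the call was lost with DESeq2 (-0.58), with limma on log2(FPKM + 1) or log2(FPKM + 0.1), and without Pde6b rd1 sample 1 (-0.44) or C3H sample 1 (-0.57) or 3 (-0.55). With 22 genes tested in each, 1 call is 4.55% of the list, against 15.0% of all genes called in Pde6b rd1 and 4.57% in Prph rd2.

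Of 19 other class I genes in the table, 12 were tested in Pde6b rd10, and 9 were called higher and 1 lower, against 15.9% of all genes called higher and 23.9% called in either direction. H2-M3, H2-Q5, H2-Q6 and H2-Q7 had enough counts to be tested only through their Pde6b rd10 samples. Their calls were thus largely fixed in advance, and the share called cannot be compared evenly with that of all genes. H2-Q4 (mean counts 28.3 in C3H and 551 in Pde6b rd10, log2 fold change 4.23), H2-M3 (7 and 66.3, 3.18), which presents formylated peptides, and H2-T22 (56.7 and 346, 2.56) were among those higher. H2-T24 (1.19), Fcgrt (1.51), the neonatal Fc receptor, and Mr1 (0.61), which presents vitamin metabolites, were higher as well. H2-M5, at -0.86, was lower. H2-Q6 was at 0 in all C3H samples and at 281 to 397 counts in Pde6b rd10, at least 97.7-fold higher against a floor of 3 counts per library. H2-Q5, also at 0 in C3H, was at least 10.9-fold higher, and H2-Q7, with 5 counts in all of C3H, was 138-fold higher (exact 95% counting interval 59.0 to 427). Of the 150-base stretches of H2-Q6 and H2-Q7, 5.99% and 6.87% occur unchanged in other genes, and 116 are shared between H2-Q6 and H2-Q7. Only exact matches were counted, so the separate values of these genes are uncertain.

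Summed over 18 class I heavy chain genes with H2 names, counts were 208, 270 and 221 in C3H, 162, 154 and 154 in Pde6b rd1, 377, 510 and 445 in Prph rd2 and 8315, 6629 and 6282 in Pde6b rd10. A sum is less sensitive than single genes to reads moving between near copies. On the log2 scale the sum differed from C3H by 4.88 (SE 0.06, 29.4-fold) in Pde6b rd10, 0.72 (SE 0.1, 1.65-fold) in Prph rd2 and -0.51 (SE 0.1, 1.43-fold lower, under the fold threshold) in Pde6b rd1. H2-K1 and H2-D1 made up 25.2 to 30.3% of the sum in C3H, 24.7 to 30.5% in Pde6b rd1, 48.6 to 56.9% in Prph rd2 and 69.0 to 70.2% in Pde6b rd10.

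Other genes of the H2 complex were called at a share near the background in Pde6b rd10. The interval from Tapbp to H2-T23, chr17:33915899-36032855, holds 137 other genes in the table after leaving out class I genes and 12 genes with class II names or named H2-Ke6. In Pde6b rd10, 18 of 86 tested (20.9%) were called, 10 higher and 8 lower, near the 23.9% of all genes called in either direction, and their median log2 fold change was -0.01. C4b, which encodes complement component 4 and lies between H2-K1 and H2-D1, had the largest change, 7.95 (mean counts 12.7 in C3H and 3280 in Pde6b rd10). C4a, its near-identical copy, fell by 1.28 on the log2 scale, and the separate values of this pair are uncertain. Aif1, a microglial gene, was higher by 2.55. The other 8 genes called higher were Gm11131 (mean counts 1 in C3H and 26 in Pde6b rd10), Cdsn (1.6), Ager (1.47), Tnxb (1.24), Ppp1r18 (0.99), Cchcr1 (0.88), Tcf19 (0.67) and Clic1 (0.66). Beside C4a, those called lower were A930015D03Rik (-1.37), BC051142 (-0.83), Rgl2 (-0.76), Tubb5 (-0.71), Gm17705 (-0.71), Ddah2 (-0.64) and Notch4 (-0.61).

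**Figure D5:**
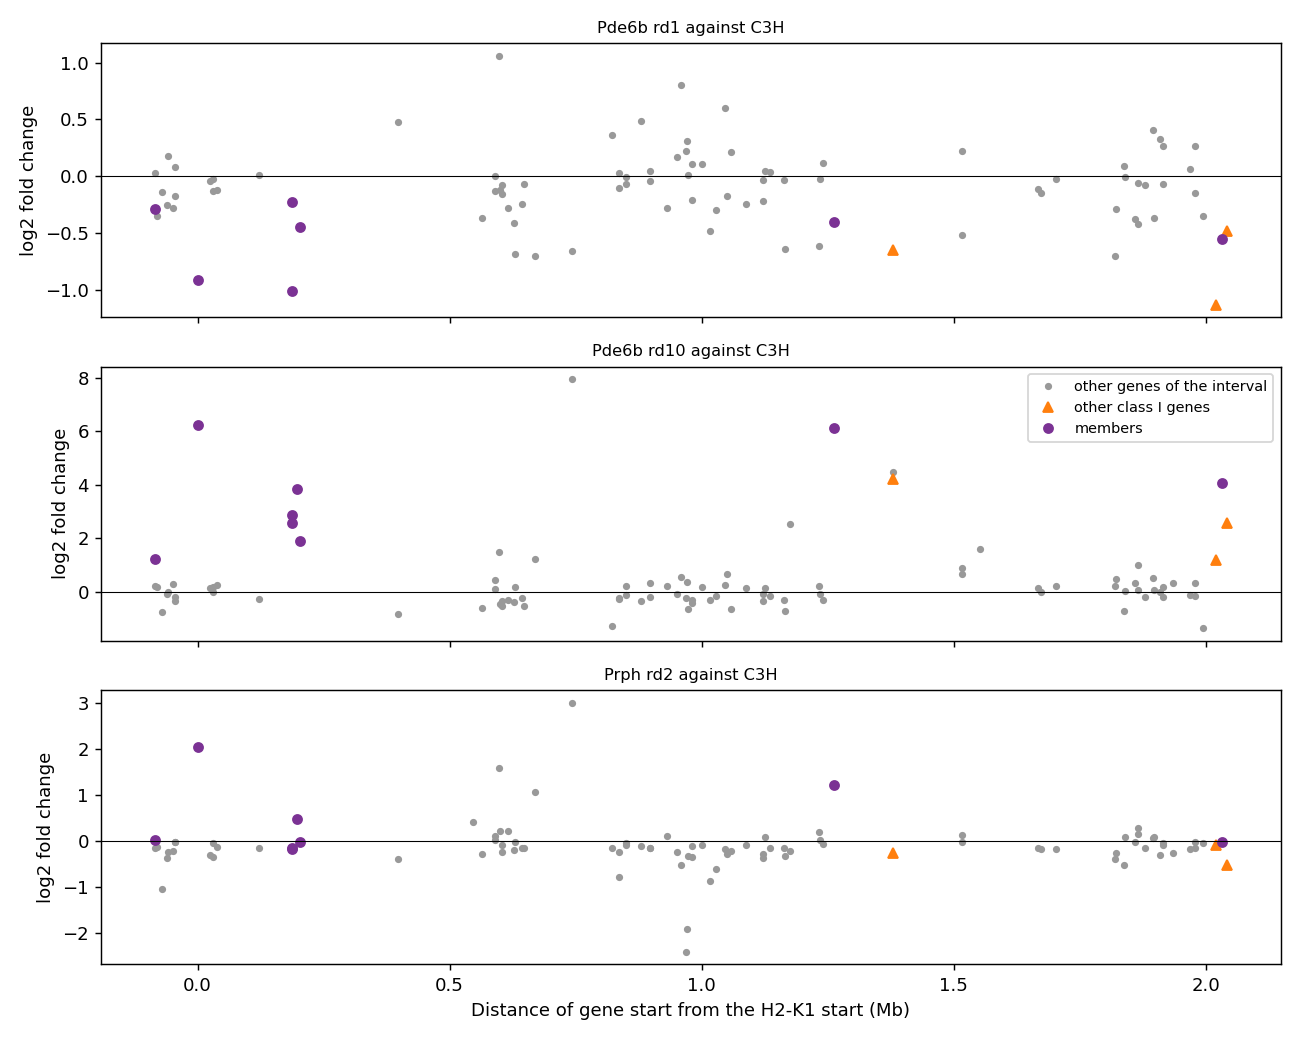
Log2 fold change against C3H (y axis, scaled separately in each panel) by distance of each gene's start from the H2-K1 start (x axis, Mb), for the 3 models. Members, other class I genes and other genes of the interval have separate symbols, and class I genes at or under 3 counts in every library of a compared group are left out. In Pde6b rd10 most neighbours lie near 0, with C4b at 7.95, between H2-K1 at 6.23 and H2-D1 at 6.13.

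In Prph rd2, 2 of the 9 genes tested were called, both higher, where 2.68% of 18581 tested genes were called higher. H2-K1 was 4.11-fold higher than in C3H (log2 fold change 2.04, SE 0.2, adjusted p = 1.55e-05 by edgeR) and H2-D1 2.33-fold (1.22, SE 0.18, adjusted p = 0.00049). In FPKM the 3 Prph rd2 samples had 1.49 to 2.2 of H2-K1 and 1.64 to 1.86 of H2-D1, above every C3H sample. B2m, Tap1, Tap2, Tapbp, H2-T23, Psmb8 and Psmb9 were not called. The log2 fold change of B2m was 0.11 with a 95% interval of -0.13 to 0.35, that of Tap1 -0.15 with -0.56 to 0.26 and that of Psmb8 0.48 with -0.28 to 1.23. Among other class I genes H2-M5 was lower (-0.79), and H2-Q5 and H2-Q7 were higher in Prph rd2. H2-Q5 and H2-Q7 had enough counts to be tested in this comparison only through their Prph rd2 samples. H2-Q5 had 10 to 15 counts against 0, at least 2.79-fold. H2-Q7 had 18 to 23 counts against 5 in all of C3H, a ratio of 11.4 (exact 95% counting interval 4.62 to 36.1). H2-Q6, which had too few counts to be tested, had 3 to 22 counts against 0 in C3H. Mutation and day cannot be told apart from any difference in H2 haplotype, and Prph2 itself lies on chromosome 17, 10.9 Mb from the interval. Among neighbours in the interval, 9 of 85 (10.6%) were called in Prph rd2, against 4.57% of all genes. The neighbours called higher were C4b (3.01, mean counts 12.7 in C3H and 119 in Prph rd2), Ager (1.6) and Tnxb (1.07). Those called lower were Gm20481 (-2.41), Hspa1a (-1.91), which encodes a heat shock protein, Rgl2 (-1.04), Vwa7 (-0.86), Stk19 (-0.78) and Sapcd1 (-0.6).

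In Pde6b rd1, 8 of the 10 genes had enough counts to be tested, all 8 estimates were below 0, and 2 were called lower, where 6.03% of 18310 genes were called lower. H2-K1 fell by 0.91 on the log2 scale (SE 0.31, adjusted p = 0.0215 by edgeR) and Psmb9 by 1.01 (SE 0.43, adjusted p = 0.0615 by edgeR), both from few counts. Without Pde6b rd1 sample 1 neither was called, at -0.71 and -0.8, and the Psmb9 call was also lost without Pde6b rd1 sample 2 or C3H sample 1 or 3. Psmb8 had too few counts to be tested against C3H with all 6 samples, but without Pde6b rd1 sample 1 it was tested and called lower (-1.24, SE 0.54, adjusted p = 0.0803 by edgeR). Tapbp, with far more counts, was lower by 0.29 (SE 0.06, adjusted p = 0.0002) and Tap2 by 0.45 (SE 0.16, adjusted p = 0.0226), both under the 1.5-fold threshold. B2m was at -0.29 with an adjusted p of 0.0676. The samples did not overlap with C3H in CPM for 5 of the 8 genes, where 51.2% of all tested genes did not. Among other class I genes, H2-T24 (-1.13), Fcgrt (-0.7) and H2-Q4 (-0.65) were called lower and Cd1d1 (0.61), which presents lipids, higher. Of the interval's neighbours 8 of 82 (9.76%) were called, against 15.0% of all genes. They were Ager (1.06), Hspa1b (0.8) and Msh5 (0.6), which were higher, and Ier3 (-0.7), Tnxb (-0.7), Prrt1 (-0.68), Gm17705 (-0.64) and Atp6v1g2 (-0.61), which were lower.

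Most microglial markers were higher in Pde6b rd10, while markers of other cell types went in either direction. Of 16 microglial genes, 15 were called higher in Pde6b rd10, against 15.9% of all genes, with a median log2 fold change of 2.13, and their summed FPKM was 204 to 219, against 59.7 to 61.3 in C3H, 57.7 to 61.1 in Pde6b rd1 and 55.4 to 58.3 in Prph rd2. No microglial marker was at 0 in all samples of a group, and the resting marker P2ry12 was at -0.36 in Pde6b rd10. In Pde6b rd1, 2 of 15 tested were called, Trem2 (0.72) and Cd68 (0.93), both higher, against 8.98% of all genes. In Prph rd2, 1 of 16 was called, Tmem119 (0.84), higher, against 2.68% of all genes. The 10 T and natural killer cell genes summed to 1.11 to 1.53 FPKM in Pde6b rd10 and 0.141 to 0.283 in C3H, and Cd8a was the only one tested, with 27 to 35 counts against 0 to 2. In Pde6b rd10, Cd4 had 10 to 18 counts against 0 to 5 in C3H and Nkg7 2 to 8 against 0. Gzmb had 2 to 4 counts, Klrb1c 1 to 7 and Cd3g 1 to 4, all against 0 in C3H. Counts of Cd3d, Cd3e, Cd8b1 and Trac in Pde6b rd10 ran from 0 to 4, and Trac had 2 to 5 in C3H. Genes of Müller glia and astrocytes (6) summed to 696 to 726 FPKM in Pde6b rd10 and 741 to 756 in C3H, a sum made up mostly of Glul (415 to 442 and 523 to 536 FPKM). Of these 6 genes, Gfap, an intermediate filament gene of reactive glia, was called higher, with 6689 to 8620 counts in Pde6b rd10 and 709 to 889 in C3H (log2 fold change 3.19). Vim, another intermediate filament gene, was called higher as well (0.76) and Slc1a3, a glutamate transporter gene, lower (-0.76). Endothelial genes (7) summed to 66.9 to 72.3 FPKM in Pde6b rd10 and 84.1 to 87.0 in C3H. Kdr alone gave 30.5 to 31.6 and 44.7 to 45.4 FPKM of these sums. Kdr (-0.6) and Tie1 (-0.86) were called lower. Flt1 went the other way, at 0.56 (adjusted p = 1.07e-09 by edgeR), under the fold threshold. Cdh5 was at -0.48, Cldn5 at -0.29, Pecam1 at 0.1 and Tek at 0.0, and these were not called. The sum of 3 B cell genes was at most 0.243 FPKM in any sample. In whole retina, fewer cells of a type and less RNA per cell cannot be told apart. The part of these cells in the class I result was not tested.

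The genes whose log2(FPKM + 1) followed each leading gene most closely over the 12 samples were described by Pearson's r among 19616 genes. H2-K1 was followed by C4b (0.9957), Lipa (0.9955), a lysosomal lipase, and Mt1 (0.9955), a metallothionein. B2m was followed by Ifit1 (0.9988), Rsad2 (0.9987) and Irf1 (0.9983), all interferon-induced genes. Tap1 was followed by Lcn2 (0.9983), which encodes lipocalin, CT025671.4 (0.9975) and Pik3ap1 (0.9970), a signalling adaptor. These correlations rest on the gap between the 3 Pde6b rd10 samples and the other 9, and the Pde6b rd10 samples share strain, day and mutation, so they are descriptions without a test. Of the 12510 circular RNAs in the deposited circular RNA table, 0 came from the 10 genes.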

How the data were processed

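Retinal RNA depleted of ribosomal RNA was sequenced from 12 samples in 4 groups of 3, assigned from sample titles. In the deposited gene table the authors gave raw read counts per gene, from cleaned reads aligned to GRCm38 (HISAT2 per the submitters' processing notes) and counted with HTSeq 0.11.2, and FPKM values they derived from those counts. Deposited circular RNA junction counts and TPM values, which the authors made with TopHat2 2.1.1 alignments, were used only to look for circular RNAs of the 10 genes. Whether counting used strand is not given in the sources used here.

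Counts were normalized by TMM, filtered with filterByExpr and tested with edgeR 4.0.16 (glmQLFit and glmQLFTest) in each model against C3H, and between models in a fit of all 12 samples. Calls needed p under 0.05 and a fold of at least 1.5. SE is the log2 fold change divided by the square root of F, and 95% intervals are 1.96 SE to each side. Ratios and shares were computed per sample from FPKM and compared by exact two-sided permutation tests. Of 32867 genes, 32852 matched GENCODE vM21 by identifier. Depth was 17049495 to 24755890 counts per sample. The test was checked on simulated counts. DESeq2 1.42.0, limma 3.58.1 on log2(FPKM + 1), other filters, fits and thresholds, single samples left out and a replicate block were alternatives. The 10 genes and all lists were chosen with earlier results of these data known. All 10 genes were named in every comparison, with the called and up to 4 other genes of each list, and for H2-K1, B2m and Tap1 the 3 genes with the highest Pearson's r. The mutated genes were named outside this rule, and 1 gene fixed in the pathway list is not reported here or counted in it.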

Additional observations from a re-analysis of the deposited data

Results flagged for a closer look

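Each of the 10 genes differed between models, which was tested directly as a contrast of the models in the fit of all 12 samples. In Pde6b rd10 all 10 were called higher than in Pde6b rd1, where 17.6% of 19616 genes were called higher, and all 10 were higher than in Prph rd2, where 13.5% were. Here too H2-K2 had enough counts to be tested only through its Pde6b rd10 samples, so its calls add no support. The models differ in mutation, day and, by the study's methods, strain, and these cannot be told apart. Because the contrasts share the Pde6b rd10 samples, their values are given side by side.

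Among genes with counts in every sample, H2-K1 and H2-D1 differed most. The log2 fold change of Pde6b rd10 over Pde6b rd1 was 7.17 for H2-K1, 6.56 for H2-D1 and 4.64 for H2-T23, and that over Prph rd2 was 4.19, 4.91 and 4.09. H2-K2 was at 0 in all Pde6b rd1 samples, so Pde6b rd10 was at least 28.9-fold higher against a floor of 3 counts per library. Against Prph rd2, with 7 counts in all, H2-K2 was 54.0-fold higher per depth (exact 95% counting interval 25.9 to 135).

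B2m was higher in Pde6b rd10 by 4.49 than in Pde6b rd1 and by 4.07 than in Prph rd2 on the log2 scale. The transporter and loading genes differed less, by 3.12 and 3.0 for Tap1, 2.38 and 1.92 for Tap2 and 1.55 and 1.21 for Tapbp. For the immunoproteasome genes the differences were 4.72 and 3.36 for Psmb8 and 3.6 and 2.74 for Psmb9. Adjusted p-values by edgeR ran from 3.43e-20 for H2-D1 to 2.23e-09 for Psmb9 against Pde6b rd1, and from 8.1e-20 for H2-D1 to 2.58e-08 for Psmb9 against Prph rd2.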

How the results depend on the processing

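In Pde6b rd10 against each of the other 3 groups, all 10 genes were called under every alternative run, including each left-out sample, and in Prph rd2 the count of 2 also stayed. The Pde6b rd1 calls rest on few counts and moved most. The 2 calls there became 1 with DESeq2, with a minimum of 1 CPM in 3 samples, with limma on log2(FPKM + 0.1) or with adjusted p and fold, 0 with limma on log2(FPKM + 1), 4 with all 12 samples in 1 fit, and 1 to 2 with single samples left out. The pathway call in Pde6b rd1 became 0 with DESeq2 and both limma fits, 9 at adjusted p without a fold minimum, and 0 to 1 with samples left out (0 without Pde6b rd1 sample 1 or C3H sample 1 or 3). The 4 other class I calls in Pde6b rd1 became 0 and 2 with the limma fits. The 8 interval calls became 2 and 4 with limma, 28 without a fold minimum and 5 to 9 with samples left out, 5 being without Pde6b rd1 sample 1 or C3H sample 1. The class I sum in Pde6b rd1 (-0.51) passed at adjusted p without a fold minimum.

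In Pde6b rd10, 16 pathway and 52 interval genes passed without a fold minimum and 7 interval genes passed with limma on log2(FPKM + 1). Pathway calls there ran from 9 to 11 with single samples left out. In Prph rd2 the other class I calls were 6 without a count filter and 0 with the CPM minimum or limma on log2(FPKM + 1), and the interval calls were 5 with that limma fit and 16 without a fold minimum. In CPM the immunoproteasome share moved by -1.14 percentage points in Pde6b rd1 and 10.4 in Pde6b rd10. With 0.1 FPKM added the H2-K1 to B2m difference in Pde6b rd10 was 1.8 on the log2 scale. Against only the C3H sample given as the same day, the H2-D1 to B2m difference in Pde6b rd10 was 2.31. The share in Prph rd2 differed by 0.33 points from the C3H sample given as its day. The cause of these changes was not tested. No result reversed.

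The replicate numbers share no stated animal or batch. With the replicate block, members called numbered 10 in Pde6b rd10, 2 in Prph rd2 and 2 in Pde6b rd1, as without it, and no other call count moved by over 1.5 times. Samples of each model were correlated with those of C3H after the group mean was taken from each gene's log2 CPM. For same-numbered samples these correlations of deviations ran from 0.0609 to 0.1526 in Pde6b rd1, -0.0631 to -0.0135 in Pde6b rd10 and -0.0911 to 0.0622 in Prph rd2. By this measure 6, 0 and 2 of 6 samples correlated best with their own number. At this depth, Psmb8 and Psmb9 outside Pde6b rd10 and H2-K2 in C3H were near the floor, and small changes in them were not detectable.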
